A study of Zea mays with 45 samples.

Results

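Maize leaves grow from the base, so that a blade holds young cells near the ligule and old cells toward the tip. Transcripts of the mature part of the leaf were compared here with those of the elongation zone at the end of the day. The comparison rests on 4 of the 42 arrays with values, 2 from the mature zone and 2 from the elongation zone. They were chosen by their labels alone, with the end of the day as sampling time, and replicate 3 of either zone is not analysed here. The series labels 45 samples in 15 groups, which are 3 zones at 5 sampling times, and each sample pooled 5 plants.

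The mature zone is labelled only as the mature leaf region. The elongation zone was cut from 3 to 4.5 cm above the ligule. At the end of the day another zone, the division zone from 0 to 1.5 cm, gave 3 arrays whose values are set beside the others below. All plants were of the maize genotype SL (KWS Einbeck) and had 14 h of light at 700 µE and 10 h of dark, with chamber settings of 25 and 22 °C. No plant of these groups had yet seen an extended night. The other times were the end of the night and 6, 14 and 24 h of extended night, and the 2 zones gave 23 arrays there. Zones may have come from the same plants, which the labels do not state, and a zone here is a mixture of cell types. In such bulk tissue fewer cells of a type and less RNA per cell cannot be told apart.

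In the elongation zone cells expand with a thin primary wall, a dense cytoplasm and plastids that are still being built. They live on sugar imported from older tissue. In the mature zone cells have stopped growing and export sugar. Maize fixes carbon by the C4 pathway there: mesophyll cells capture carbon dioxide as a C4 acid, and bundle sheath cells release it to Rubisco. Many enzymes of this pathway have relatives with other duties in young or non-green tissue.

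Values are log2 signals of the array as its authors normalized them. A level of one probe set cannot be set against that of another, so only differences are compared between genes. Each difference is the mature minus the elongation zone, given ± SE from limma with n = 2 arrays per zone and a spread pooled over all 42 arrays, and a gene is called when its adjusted p lies under 0.05. Probe sets with 1 gene name cover 1108 genes, each read here from its brightest probe set. A signal at or under 6.19 is called dim, since 95% of the reporter probe sets, which match no maize gene, lie below it.

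Of 17555 probe sets, 12650 were called, 72.1%, with 6340 higher, 36.1%, and 6310 lower, 35.9%, in the mature zone. For 15068 probe sets, 85.8%, the arrays of the zones did not overlap. By at least 1, 2682 were higher, 15.3%, and 3380 lower, 19.3%. By at least 4, 298 were higher and 233 lower. Among the 1108 named genes 432 were higher, 39.0%, and 414 lower, 37.4%, or 76.4% in either direction, with a median difference of 0.09, and every list below is to be read against these shares. The 2 arrays of a zone correlated at 0.993 in the mature and 0.997 in the elongation zone over all probe sets, and arrays of different zones at 0.781 to 0.785. By their means, 1154 probe sets were above the dim level only in the mature zone and 1002 only in the elongation zone, counted without regard to call or size.

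Some signals that no leaf gene sets also moved with the zone. The hybridization controls are bacterial RNAs added to every sample in fixed amounts. Their medians were higher in the mature zone, by 0.77 for bioB, 0.64 for bioC and 0.43 for bioD, while the phage control cre differed by −0.02. In the maize transcripts probed at both ends, the 3' end exceeded the 5' end by more in the mature zone for actin, at 2.80 and 2.74 against 1.55 and 2.02, and likewise for EF-1alpha, cyclophilin and ubiquitin. For GAPDH the 2 zones overlapped. Among 66 reporter probe sets 22 came out higher, by at most 0.85, and 1 lower, beside 36.1% higher and 35.9% lower of all probe sets. Calls of that size thus also arose where no maize gene is matched. Setting all arrays to equal bacterial controls would lower every difference by 0.63, which turns the 6340 higher and 6310 lower calls into 2452 and 10084. Centring the arrays on their medians would raise every difference by 0.16. So a gene higher by less than 0.63 is lower on the first scale, and directions of smaller gains are tied to the deposited scale. The part of these differences in the results below was not tested.

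**Figure D1:**
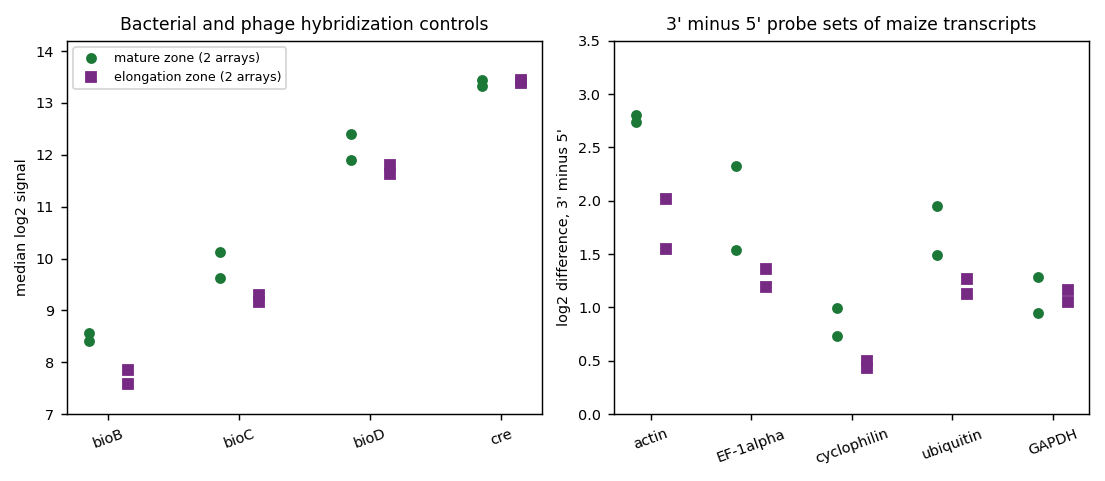
Left, median log2 signal of the hybridization controls on each end-of-day array, with the 2 mature-zone arrays left of the 2 elongation-zone arrays. Right, log2 difference between the 3' and 5' probe sets of 5 maize transcripts. The bacterial controls bioB, bioC and bioD lie higher in the mature zone and cre does not; the gap between transcript ends is wider in the mature zone for 4 of the 5 transcripts.

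Among the named genes, many of the largest gains were those of photosynthesis genes. Only 8.27% of probe sets have 1 gene name, so most of the array is not covered by this statement. Over all probe sets the largest difference was 9.81, and 16 were higher by at least 8, beside 4 named genes. *fdx2*, a ferredoxin gene, read 13.28 and 13.38 in the mature zone, against 3.94 and 4.30 in the elongation zone, a difference of 9.21 ± 0.18 (adjusted p = 3.4e-28). *Ppdk1*, pyruvate orthophosphate dikinase, which remakes the acceptor of carbon dioxide in mesophyll cells, read 13.62 and 13.56, against 5.26 and 5.40 (8.26 ± 0.22, adjusted p = 7.6e-25). The 2 groups of arrays lay far apart, and in the elongation zone both genes were dim. *pep1*, PEP carboxylase, which fixes carbon dioxide first, read 14.40 and 14.27 in mature tissue, against 6.30 and 6.26 in elongating tissue (8.05 ± 0.30). *me3*, the NADP-malic enzyme that releases it again in the bundle sheath, read 13.96 and 13.96, against 6.88 and 6.82 (7.11 ± 0.12). *rca1*, Rubisco activase, read 12.29 and 12.56, against 4.61 and 4.64 (7.80 ± 0.14). No array of one zone came near those of the other for these enzymes, which belong to both cell types of the C4 cycle. A weaker probe set of *Ppdk1*, 1 of 5, was called lower.

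The regulators of this cycle did not all follow. *pdrp1*, whose product switches pyruvate orthophosphate dikinase on and off with light, read 12.43 and 12.45 in the mature zone, against 5.33 and 5.36 in the elongation zone (7.10 ± 0.11). *PPCK1*, the kinase of PEP carboxylase, read 7.09 and 7.39, against 7.59 and 7.20, and was not called (−0.16 ± 0.16, adjusted p = 0.39). With equal bacterial controls *PPCK1* was called lower. *mdh6*, NADP-malate dehydrogenase, had 13.51 and 13.51 against 9.93 and 10.05 (3.52 ± 0.19) and was bright in both zones. LOC541622, second to *fdx2* among the named genes by size, has no description in the annotation used here and read 12.92 and 13.0, against 3.99 and 3.94 (8.99 ± 0.17).

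**Figure D2:**
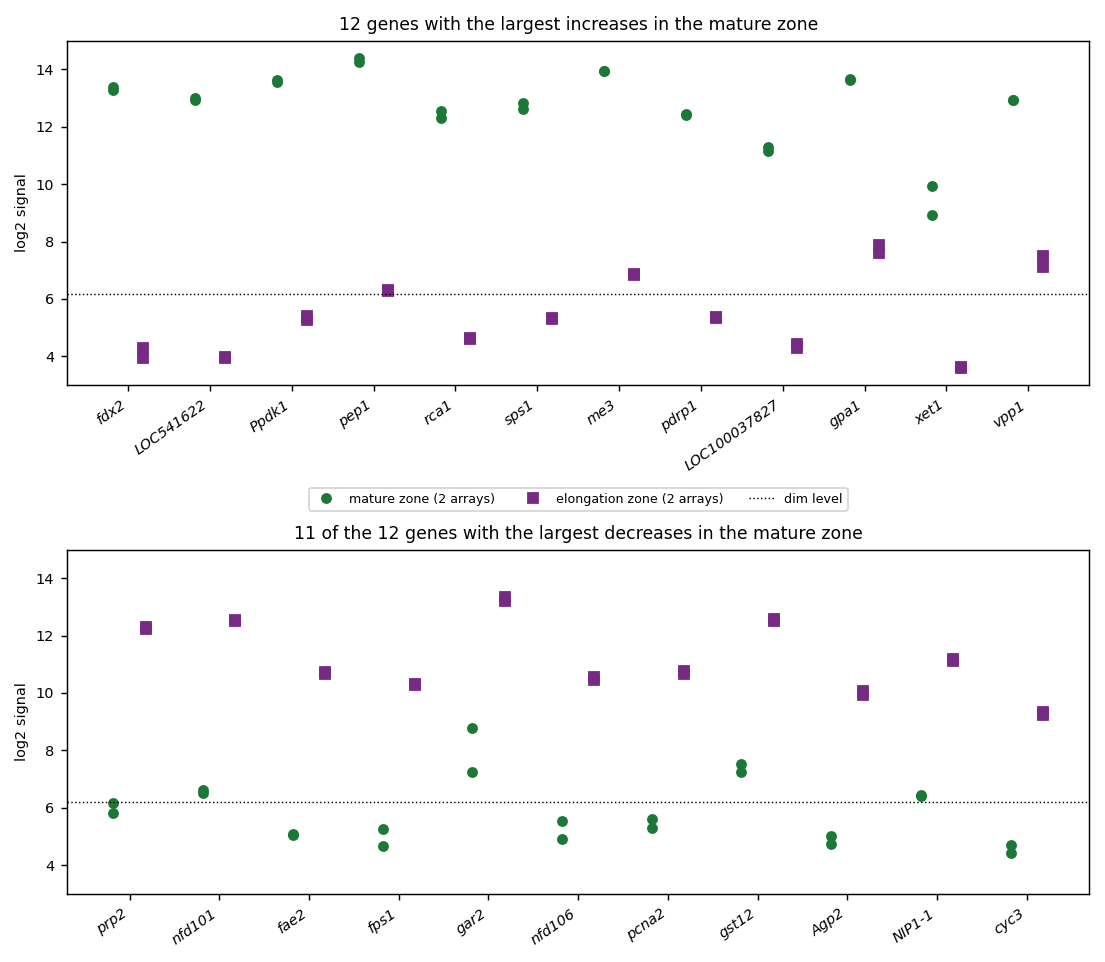
Log2 signal on each end-of-day array for the named genes with the largest increases (top, 12 genes) and for 11 of the 12 with the largest decreases (bottom); circles are the 2 mature-zone arrays, squares the 2 elongation-zone arrays, and the dotted line is the dim level. Genes were chosen among those whose arrays do not overlap between zones. Most are near or under the dim level in the zone where they are lower.

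Genes of the thylakoid rose. All 5 photosystem genes were called higher, with a median of 4.65, and so were all 4 light-harvesting genes, with a median of 4.04. *psbs1*, the photosystem II protein that triggers heat dissipation, read 13.31 and 13.34 in the mature zone, against 8.14 and 7.97 in the elongation zone (5.27 ± 0.18). *psah1* of photosystem I read 13.70 and 13.77, against 9.59 and 9.47 (4.21 ± 0.14), and *PSBQ1* of the oxygen-evolving complex 13.87 and 13.87, against 10.12 and 10.11 (3.75 ± 0.15). None of these was dim in elongating tissue: each was bright there and brighter in the mature zone. Of the light-harvesting genes *lhcb5* had the smallest difference (2.69 ± 0.12) and *Lhcb5-2* the largest (4.69 ± 0.12). *pgr5*, needed for cyclic electron flow around photosystem I, gained 4.64 ± 0.14.

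Pigment genes rose by smaller amounts. All 5 genes of chlorophyll and tetrapyrrole synthesis or breakdown were higher, by 0.94 to 1.81, among them *oy1* of magnesium chelatase (1.81 ± 0.17), *por*, which makes chlorophyllide in the light (1.78 ± 0.13), and *les22*, uroporphyrinogen decarboxylase (1.44 ± 0.22). The pheophorbide oxygenase gene *lls1* gained 1.19 ± 0.14 and *elm1*, of phytochrome chromophore synthesis, 0.94 ± 0.11, which was not called with equal bacterial controls. Of 9 genes for carotenoids, isoprenoids and tocopherol 8 were higher, led by the carotenoid cleavage gene *CCD1* (4.32 ± 0.16), the tocopherol cyclase gene *sxd1* (3.75 ± 0.16) and *dxs1*, the entry step of the plastid isoprenoid route (3.45 ± 0.16). All 4 genes of the Calvin cycle and Rubisco assembly were higher, the weakest being *ssu1*, the Rubisco small subunit, at 13.19 and 13.28 in the mature zone, against 10.36 and 10.38 in the elongation zone (2.87 ± 0.15). *bsd2*, a chaperone for Rubisco assembly, gained 4.06 ± 0.18 and *gpa1*, the plastid glyceraldehyde phosphate dehydrogenase, 5.91 ± 0.16. Catalase genes split: *cat2* gained 4.40 ± 0.13, *CAT3* gained 2.01 ± 0.21, and *cat1* was not called (−0.04 ± 0.12). With equal bacterial controls *cat1* was called lower.

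Genes of the plastid's own gene expression were higher in mature tissue too. All 6 genes for sigma factors and organellar RNA polymerase were higher, with a median of 3.09. *sig1* read 11.41 and 11.50 in the mature zone, against 6.97 and 6.90 in the elongation zone (4.52 ± 0.16), and *sig6* 10.85 and 11.12, against 7.62 and 7.52 (3.42 ± 0.16). Sigma factors steer the plastid-encoded polymerase to its promoters, and *sig3* (3.22 ± 0.16), *sig2B* (2.97 ± 0.14) and *sig2A* (1.55 ± 0.13) were higher as well. All 7 genes for splicing and processing of plastid RNA were higher, or 4 with equal bacterial controls, with a median of 1.21, among them *caf2* (2.74 ± 0.16), *crs1* (2.25 ± 0.16) and *crp1* (2.11 ± 0.15). Of 7 genes for protein import and thylakoid targeting 5 were higher, all of them on the thylakoid side, such as *csy1* of the Sec route (2.25 ± 0.13), *tha9* (1.88 ± 0.20) and *hcf106* of the twin-arginine route (1.46 ± 0.09). The 2 not called, *toc34* (0.12 ± 0.12) and *toc34B* (0.01 ± 0.14), which encode receptors of the outer envelope, are named after their values were seen; with equal bacterial controls both are lower, by the values −0.51 and −0.63. Among regulators, the blue-light receptor gene *phot1* gained 3.97 ± 0.17, *glk1*, a GOLDEN2-like factor that drives chloroplast genes, 2.55 ± 0.16, and *et1* 1.0 ± 0.16, which was not called with equal bacterial controls.

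**Figure D3:**
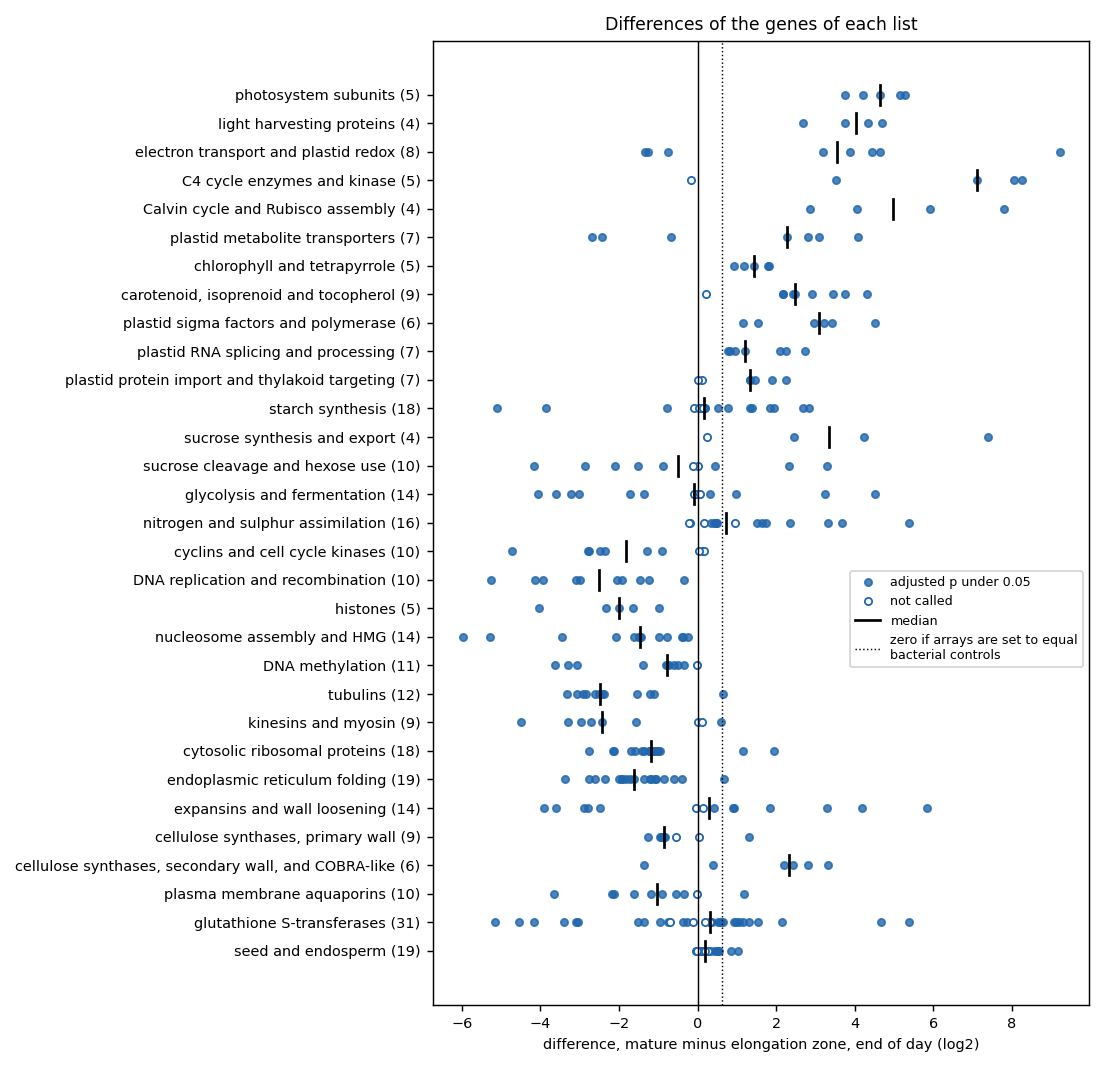
Difference, mature minus elongation zone at the end of the day in log2, of every gene of 31 lists (number of genes in brackets); filled points are called, open points are not, and bars mark list medians. The solid line is 0 on the deposited scale and the dotted line, at 0.63, is 0 if the arrays are set to equal bacterial controls. Medians of lists of the photosynthetic apparatus lie right of both lines, and those of division, microtubules and protein synthesis lie left. Single genes of several of these lists lie on the other side. Genes of starch, sucrose, glycolysis, expansins and glutathione S-transferases spread to both sides.

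Within several families one gene was higher and another lower in the mature zone. With 39.0% of all named genes higher and 37.4% lower, such a split alone does not set a family apart. Beside *fdx2*, the ferredoxin genes *fdx3*, at 10.64 and 11.15 in the mature zone, against 12.22 and 12.12 in the elongation zone, and *FDX6*, at 10.11 and 10.19, against 11.57 and 11.42, were lower (−1.27 ± 0.16 and −1.34 ± 0.18). Ferredoxin-NADP reductase genes also went both ways: the leaf forms *L-FNRI* and *L-FNRII* gained 4.44 ± 0.16 and 3.88 ± 0.17, and *fnr1* fell by 0.76 ± 0.11. Another probe set of *fnr1*, under the dim level in both zones, was called higher. Against *me3*, its relative *me2* was lower, at 10.22 and 10.0, against 11.17 and 11.14 (−1.04 ± 0.09). The PEP carboxylase genes *pep4* (0.95 ± 0.12, not called with equal bacterial controls) and *pep7* (−0.18 ± 0.14, not called) moved by 1 or less. With equal bacterial controls *pep7* was called lower.

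**Figure D4:**
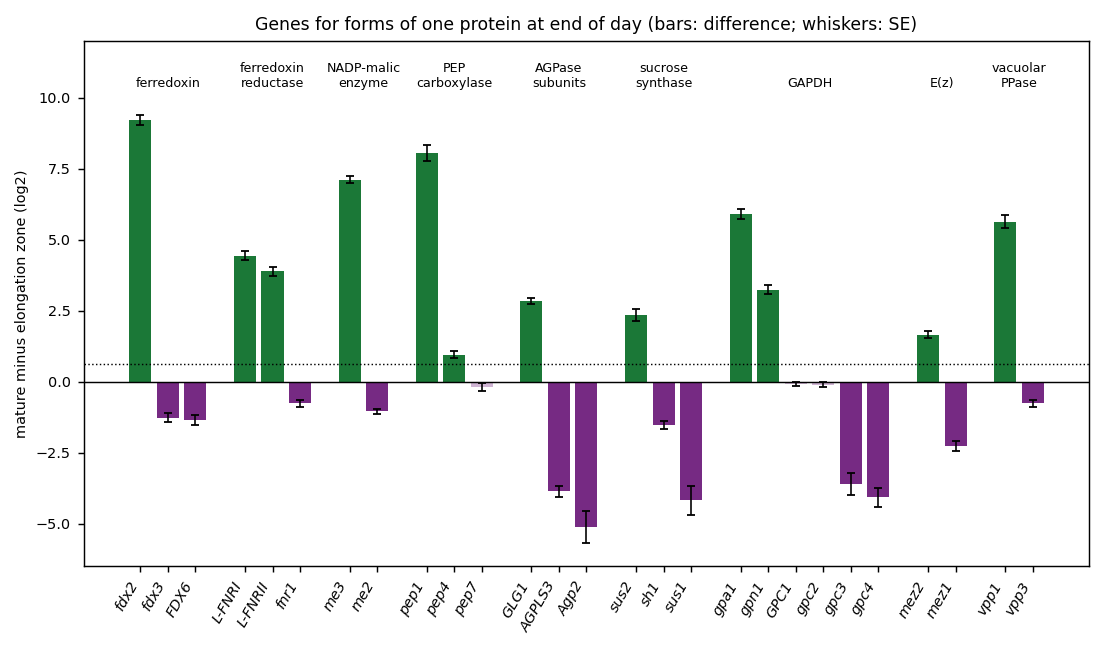
Difference, mature minus elongation zone at the end of the day (log2, bars, with SE as whiskers), for genes that encode forms or subunits of one protein; pale bars were not called. The dotted line at 0.63 is 0 if the arrays are set to equal bacterial controls. Each family shown holds at least 1 gene higher and, apart from the PEP carboxylases, at least 1 gene called lower in the mature zone. Among all named genes 39.0% were higher and 37.4% lower.

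Carriers of the plastid envelope went both ways. The dicarboxylate carriers of the C4 cycle and the triose phosphate carrier were higher: *pDCT2* by 4.09 ± 0.20, *pOMT1* by 3.10 ± 0.13, *TPT* by 2.80 ± 0.12 and *pDCT1* by 2.28 ± 0.10. *TPT*, which exports the product of photosynthesis, read 13.83 and 13.76 in the mature zone, against 10.96 and 11.01 in the elongation zone. Carriers of other compounds were lower: *ppt1*, for phosphoenolpyruvate, at 8.70 and 8.58, against 11.35 and 11.31 (−2.69 ± 0.28), and *gpt*, for glucose phosphate, by −0.67 ± 0.12. *pGlcT*, the glucose carrier, fell by 2.44 ± 0.14. All 7 carriers were called.

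Starch genes also went both ways. ADP-glucose pyrophosphorylase makes the sugar donor of starch. Its small-subunit gene *Agp2* (LOC542072), described from the embryo, was at 4.72 and 5.03 in the mature zone, against 9.93 and 10.06 in the elongation zone, and fell by 5.12 ± 0.55 (adjusted p = 9.5e-10). The large-subunit gene *AGPLS3* had 3.63 and 3.84 against 7.58 and 7.60 (−3.86 ± 0.19). The leaf small-subunit gene *GLG1* went the other way, with 12.23 and 12.15 in mature tissue, against 9.29 and 9.40 in elongating tissue (2.84 ± 0.11). Both genes that fell were dim in the mature zone, where a signal has little room to fall. Of the 18 starch synthesis genes 8 were higher and 3 lower, but 6 higher and 9 lower with equal bacterial controls. The starch synthase *zSSIIb* (2.69 ± 0.13) and the debranching enzymes *iso3* (1.94 ± 0.17) and *iso2* (1.85 ± 0.13) were among the higher, and *wx1*, the granule-bound synthase of storage tissue, among the lower (−0.79 ± 0.12). The similarly spelled *AGP2* (LOC542737) is another locus.

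Genes that make and load sucrose were higher. *sps1*, sucrose-phosphate synthase, read 12.63 and 12.81 in the mature zone, against 5.35 and 5.32 in the elongation zone (7.39 ± 0.13), *spp1*, which completes the synthesis, 11.66 and 11.86, against 9.13 and 9.48 (2.46 ± 0.15), and *sut1*, the phloem loader, 11.05 and 11.58, against 7.20 and 6.96 (4.24 ± 0.18). A further phosphatase gene, *SPP2*, was dim in both zones and not called (0.23 ± 0.26). On the cleaving side 5 of 10 genes were lower and 3 higher, or 7 and 2 with equal bacterial controls. *sus1*, sucrose synthase, had 9.40 and 9.34 in mature tissue, against 13.57 and 13.50 in elongating tissue, and fell by 4.17 ± 0.51. Its relative *sh1* had −1.51 ± 0.14, but another sucrose synthase gene, *sus2*, was higher, at 7.86 and 7.69, against 5.58 and 5.30 (2.33 ± 0.21). The fructokinase genes *frk2* (−2.86 ± 0.15) and *frk1* (−2.09 ± 0.12) were lower, and the cell wall invertase gene *incw1* was higher (3.30 ± 0.16).

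In glycolysis and fermentation 6 of 14 genes were lower and 4 higher, or 10 and 2 with equal bacterial controls. The cytosolic glyceraldehyde phosphate dehydrogenase genes *gpc4*, at 6.96 and 6.80 in the mature zone, against 10.80 and 11.10 in the elongation zone, and *gpc3*, at 8.02 and 8.01, against 11.53 and 11.71, were lower (−4.07 ± 0.32 and −3.61 ± 0.38). Named after their values were seen, *GPC1* (−0.07 ± 0.08) and *gpc2* (−0.10 ± 0.08) of the same family were not called. *gpn1*, the form that makes NADPH and no ATP, was higher (3.24 ± 0.16), as was the phosphofructokinase gene *pfk1*, at 10.29 and 10.36, against 5.75 and 5.89 (4.51 ± 0.11). On the route to ethanol 2 genes were lower, *pdc3*, pyruvate decarboxylase (−3.21 ± 0.14), and *adh1*, alcohol dehydrogenase (−3.01 ± 0.14), while *adh2* was higher (0.97 ± 0.12, not called with equal bacterial controls).

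Of 16 genes for nitrogen and sulphur assimilation 12 were higher and none was called lower, or 7 higher and 2 lower with equal bacterial controls. A gene of this list with a probe set called higher also had a weaker probe set called lower (−1.28 ± 0.18). *GLN6*, a glutamine synthetase gene, read 11.19 and 11.24 in the mature zone, against 5.87 and 5.78 in the elongation zone (5.39 ± 0.15). *NNR1*, nitrate reductase, read 11.07 and 10.51, against 7.54 and 7.37 (3.33 ± 0.26), and *sat1*, serine acetyltransferase at the start of cysteine synthesis, 8.22 and 8.25, against 4.66 and 4.47 (3.67 ± 0.17). *gs2*, a glutamine synthetase gene that was bright in both zones, gained 2.36 ± 0.25. In the amino acid list the largest gain was that of *cgs1*, cystathionine gamma-synthase (2.23 ± 0.17), and the largest loss that of *HMT-3*, homocysteine methyltransferase (−2.16 ± 0.32), both of methionine metabolism.

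Genes of cell division were lower in the mature zone. All 10 genes for DNA replication and recombination were lower, with a median of −2.52, and 7 of 10 for cyclins and cell cycle kinases, with none higher. *pcna2*, the sliding clamp of DNA polymerase, was at 5.31 and 5.60 in the mature zone, against 10.77 and 10.66 in the elongation zone, and fell by 5.26 ± 0.68 (adjusted p = 3.1e-08). *MCM6* of the replicative helicase had 4.93 and 5.19 against 9.14 and 9.26 (−4.14 ± 0.51), and *MCM7* 4.59 and 4.69 against 8.54 and 8.60 (−3.93 ± 0.48). The mitotic cyclin gene *cyc3* had 4.72 and 4.42 against 9.23 and 9.34 (−4.71 ± 0.40), and *mad2* of the spindle checkpoint 6.04 and 6.01 against 8.76 and 8.87 (−2.79 ± 0.20). These genes were dim in mature tissue but bright in the elongation zone. Division-zone means were 9.66 for *cyc3* and 11.71 for *pcna2*, with elongation minus division differences of −0.37 ± 0.36 and −0.99 ± 0.62. Neither difference was called, which does not show equal levels.

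Chromatin genes were lower as well. All 5 histone genes, all 14 of nucleosome assembly and HMG proteins, and 10 of 11 of DNA methylation were lower. *nfd101*, of the HMG group, read 6.51 and 6.60 in the mature zone, against 12.51 and 12.54 in the elongation zone (−5.97 ± 0.75), and *nfd106* of the same group 4.91 and 5.52, against 10.44 and 10.55 (−5.28 ± 0.60). The core histone gene *his2b5* had −4.03 ± 0.50, the linker histone genes *hon101* and *hon102* had −2.33 ± 0.16 and −0.97 ± 0.10, and *cenH3* of the centromere −2.0 ± 0.34. Among DNA methyltransferase genes *met2* had 5.57 and 5.72 against 9.39 and 9.18 (−3.64 ± 0.50), *met5* 6.38 and 6.42 against 9.74 and 9.66 (−3.30 ± 0.38) and *dmt101* 6.37 and 6.53 against 9.52 and 9.50 (−3.06 ± 0.31). The histone gene *his1* had −1.66 ± 0.16 at its brightest probe set, while 3 of its 6 probe sets, all of lower signal, were called higher by 0.34 to 0.41.

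Polycomb proteins silence developmental genes, and their catalytic E(z) subunit comes from the *mez* genes. *mez1* was at 6.65 and 6.77 in the mature zone, against 8.92 and 9.03 in the elongation zone (−2.26 ± 0.17), and *mez2* at 8.47 and 8.45, against 6.76 and 6.84 (1.66 ± 0.13). The values of *mez2* ran upward along the leaf, with a division-zone mean of 5.91, and those of *mez1* downward, with 9.63. Of the 13 genes of this list 8 were lower and 3 higher, or 10 and 1 with equal bacterial controls. Of 3 histone acetyltransferase genes 2 were lower and 1 higher, and of 8 histone deacetylase genes 4 were lower and 2 higher. The histone acetyltransferase gene *hac106* (−2.57 ± 0.30) and the plant deacetylase genes *hdt103* (−2.01 ± 0.35) and *hdt102* (−1.41 ± 0.31) were among the lower. With equal bacterial controls no gene of these 2 lists was higher.

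Tubulin genes and most motor genes were lower. Of 12 tubulin genes 11 were lower, with a median of −2.47, led by *tub5* at 9.06 and 8.82 in the mature zone, against 12.22 and 12.32 in the elongation zone (−3.32 ± 0.53), and *tub4*, whose elongation-zone arrays (11.84 and 11.76) stood far above its division-zone mean of 8.99 (−3.06 ± 0.29 in the mature zone). The exception, *tub3*, was higher on the deposited scale (0.66 ± 0.19) and stood at 0.02 with equal bacterial controls. Of 9 kinesin and myosin genes 6 were lower, *kin4* by the most (−4.48 ± 0.42), and the myosin gene *myo1* was higher on the deposited scale (0.60 ± 0.13) and at −0.03 with equal bacterial controls. Of 10 genes for actin-binding proteins 3 were higher and 3 lower, with a median of −0.01, or none and 6 with equal bacterial controls.

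Genes of protein synthesis and folding were mostly lower. Of 18 cytosolic ribosomal protein genes 16 were lower, with a median of −1.20; *rpp2a-3*, of the acidic stalk, had −2.77 ± 0.48, *rpl30* −2.14 ± 0.24 and *RPL19* −2.13 ± 0.24. The remaining 2 rose: *rpp2b*, another stalk protein, read 12.64 and 12.72 in the mature zone, against 10.68 and 10.76 in the elongation zone (1.95 ± 0.08), and *rpl29* 13.12 and 13.12, against 11.99 and 11.96 (1.15 ± 0.11). Of 13 translation factor genes 9 were lower, *eIF4E1*, the cap-binding protein, by the most (−1.88 ± 0.14). In the endoplasmic reticulum 18 of 19 folding genes were lower, with a median of −1.61. *crt2*, calreticulin, had 10.38 and 9.91 in mature tissue, against 12.84 and 12.97 in elongating tissue (−2.76 ± 0.32), *PDIL1-4*, a disulfide isomerase, 5.60 and 5.29 against 8.75 and 8.90 (−3.38 ± 0.20), and *derlin4* alone was higher (0.67 ± 0.10, not called with equal bacterial controls). Of its 2 probe sets the other was called lower. In mitochondria 6 of 7 prohibitin and porin genes were lower, *vdac2* by the most (−2.32 ± 0.19). Probe sets of *phb1* from this list were called lower (−0.77 ± 0.10) and, at lower signal, higher (1.71 ± 0.18).

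Wall genes went both ways. Expansins loosen walls for growth, and of 14 genes for expansins and related enzymes 5 were lower and 7 higher, or 5 lower and 4 higher by at least 1. With equal bacterial controls 7 were lower and 4 higher. *expB8* had 7.22 and 7.19 in the mature zone, against 11.28 and 10.95 in the elongation zone (−3.91 ± 0.31), *expA4* 6.52 and 6.82 against 10.42 and 10.11 (−3.60 ± 0.26) and *expB3* 5.58 and 5.52 against 8.48 and 8.38 (−2.89 ± 0.25). A weaker probe set of *expB8* was called higher. On the other side, 3 expansin genes and a wall transglycosylase gene went up: *expa1* had 11.32 and 11.36 in mature tissue, against 7.31 and 6.99 in elongating tissue (4.19 ± 0.37), *expB6* had 3.28 ± 0.24, *EXPA5* 1.85 ± 0.26, and *xet1* 8.94 and 9.94 against 3.60 and 3.62 (5.83 ± 0.23). The 2 mature arrays of *xet1* had an SD of 0.71, and neither came near the elongation zone.

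Cellulose synthases of primary and secondary walls differed in count. Of 9 primary-wall genes 6 were lower and *cesa7* was higher, at 12.21 and 12.02 in the mature zone, against 10.81 and 10.83 in the elongation zone (1.30 ± 0.18). *cesa8* had −1.27 ± 0.17, *CesA-1* −0.96 ± 0.22 and *CesA-9* −0.93 ± 0.22. All 3 secondary-wall genes were higher: *cesa10* at 9.0 and 8.57, against 5.38 and 5.55 (3.32 ± 0.20), *cesa11* (2.43 ± 0.14) and *CesA12* (2.20 ± 0.17). *bk2*, a COBRA-like gene needed for a strong stalk wall, gained 2.81 ± 0.18, while its relative *Bk2L3* had −1.35 ± 0.22. Of 12 lignin genes 9 were higher and 1 lower, or 5 and 2 with equal bacterial controls. The laccase gene *LAC1* read 10.56 and 10.80, against 5.70 and 5.06 (5.30 ± 0.29), the peroxidase gene *pox2* gained 3.12 ± 0.22 and *cncr1*, cinnamoyl-CoA reductase, 2.35 ± 0.25, while the peroxidase gene *pox1* had −2.42 ± 0.19.

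Genes of water and ion transport went both ways. Of 10 plasma membrane aquaporin genes 8 were lower and 1 higher. *pip2d* had 7.02 and 5.87 in the mature zone, against 10.09 and 10.10 in the elongation zone (−3.65 ± 0.35), and its division-zone mean was 5.44, below the elongation zone. *pip2e* had −2.17 ± 0.11 and *pip1b* −2.13 ± 0.16, while *pip1e* was the gene that was higher, though dim in both zones (1.18 ± 0.18). Another probe set of *pip2e*, of much lower signal, was called higher. In the vacuolar membrane *tip4a* gained 3.54 ± 0.14 and *tip1* had −1.44 ± 0.13. Silicon channel genes of the NIP group rose: *Lsi6* read 10.05 and 10.03 in mature tissue, against 4.82 and 5.04 in elongating tissue (5.11 ± 0.26), and *Lsi1* 10.41 and 10.86, against 7.55 and 7.44 (3.14 ± 0.16). *NIP1-1* had 6.40 and 6.44, against 11.19 and 11.10 (−4.72 ± 0.28). The vacuolar proton pyrophosphatase gene *vpp1* read 12.95 and 12.93, against 7.10 and 7.51 (5.64 ± 0.24), and its relative *vpp3* was lower (−0.76 ± 0.12). The potassium channel genes *kch3* (3.24 ± 0.15) and *KZM2* (3.04 ± 0.13) were higher and, in elongating tissue, dim.

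Lipid genes went both ways. *fae2*, a fatty acid elongase gene, read 5.07 and 5.09 in the mature zone, against 10.65 and 10.75 in the elongation zone (−5.62 ± 0.36), and *gl8*, a ketoacyl reductase for surface wax, had −2.35 ± 0.12. *plt2*, a phospholipid transfer protein, had −3.21 ± 0.30, with a division-zone mean of 6.80 and an elongation-zone level of 11.79 and 11.65. The plastid desaturase genes *FAD8*, at 12.20 and 12.35, against 8.21 and 8.03 (4.15 ± 0.16), and *fad7* (1.61 ± 0.21) were higher, and so was *gl15*, a factor for juvenile epidermis (2.30 ± 0.16). In the isoprenoid branch of the cytosol *fps1*, farnesyl diphosphate synthase, had 4.68 and 5.25 in the mature zone, against 10.30 and 10.26 in the elongation zone (−5.31 ± 0.33). Of 8 terpene and sterol genes 3 were lower and 2 higher, or 6 lower and none higher with equal bacterial controls and 3 lower and 5 higher with arrays centred on their medians. The sterol genes *smt1* (−2.34 ± 0.22) and *sqs1*, squalene synthase (−1.73 ± 0.14), were among the lower.

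Glutathione S-transferases, which join glutathione to reactive compounds, formed the longest list. Of 31 genes 14 were higher and 12 lower, or 6 and 14 with equal bacterial controls, with a median of 0.31 on the deposited scale and −0.33 with equal bacterial controls. *gst19* had 9.33 and 9.18 in the mature zone, against 3.91 and 3.85 in the elongation zone (5.38 ± 0.27), and *gst18* 9.32 and 9.05 against 4.45 and 4.57 (4.67 ± 0.15). At the other end *gst12* had 7.54 and 7.24 against 12.57 and 12.51 (−5.15 ± 0.67), *gst9* 7.35 and 6.91 against 11.58 and 11.79 (−4.55 ± 0.33) and *gst11* 7.07 and 7.49 against 11.44 and 11.43 (−4.16 ± 0.31). The arrays of the 2 zones did not overlap for these 5 genes, which were named for their size. The same held for 30 of the 31 genes and for 85.8% of all probe sets.

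Hormone and patterning lists were mixed. Of 14 genes for cytokinin response regulators, which the hormone induces, and for its turnover 9 were higher and 1 lower, or 6 and 3 with equal bacterial controls: *RR6* read 9.56 and 9.57 in the mature zone, against 5.53 and 5.51 in the elongation zone (4.05 ± 0.21), *crr1* gained 3.43 ± 0.22 and *cko2*, cytokinin oxidase, 3.02 ± 0.32. Of 5 gibberellin genes 4 were higher, or 2 with equal bacterial controls, among them the early-step genes *KS*, kaurene synthase (3.29 ± 0.28), and *an1* (2.30 ± 0.23). The auxin carrier gene *aux1* had 5.82 and 5.63 in mature tissue, against 9.66 and 9.42 in elongating tissue (−3.82 ± 0.43), and the auxin-binding protein gene *abp1* −1.73 ± 0.10. Of 10 lipoxygenase and jasmonate genes 4 were higher and 2 lower, or 2 and 4 with equal bacterial controls: *aos1*, allene oxide synthase, had −2.76 ± 0.42, while *hpl1*, hydroperoxide lyase, gained 2.60 ± 0.18 and *opr5*, an oxophytodienoate reductase, 3.83 ± 0.20. Probe sets of *aoc1*, allene oxide cyclase, were called in opposite directions. Of 9 polarity genes 4 were lower and 2 higher, or 6 lower and none higher with equal bacterial controls and 4 lower and none higher after quantile normalization. *yabby15* (−3.41 ± 0.33) and *lbl1*, of small RNA production (−2.01 ± 0.30), were the lowest of them. Of 7 KNOX and blade-sheath genes 2 were higher and 1 lower, *rs2*, which keeps meristem genes silent in leaves (−2.11 ± 0.30). With equal bacterial controls none of these 7 was higher and 3 were lower. Of 5 epidermal HD-ZIP IV genes 4 were lower, *ocl4* by the most (−1.60 ± 0.15).

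Protease and defence genes were mostly higher. Of 10 protease genes 6 were higher and 1 lower, or 6 and 3 with equal bacterial controls: *see2b*, a vacuolar processing enzyme, at 11.91 and 12.10 in the mature zone, against 8.04 and 8.24 in the elongation zone (3.87 ± 0.14), and *LON2* was the lower gene (−1.87 ± 0.26), while *lon1* was higher (1.73 ± 0.09). All 5 defence genes were higher, *rip2*, a ribosome-inactivating protein, by 3.81 ± 0.50 and *chn1*, chitinase, by 3.11 ± 0.55; with equal bacterial controls 2 of the 5 were. Of 7 genes for superoxide dismutase, ascorbate and glutathione 4 were lower and 2 higher, or 5 and 1 with equal bacterial controls, with the dismutase gene *Sod4A* the lowest (−2.13 ± 0.22). The beta-glucosidase genes of the benzoxazinoid defence split, with *glu1* at −3.48 ± 0.39 and *glu2* at 1.65 ± 0.35.

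Of the lists not yet described, all 5 flavonoid genes were higher, or 1 with equal bacterial controls, and of 15 genes for proton pumps and ion transport 10 were higher and 2 lower, or 7 and 4. Of 11 heat shock genes 7 were lower and 2 higher, and of 11 growth-regulating factor genes 5 were lower and 2 higher, or 8 and none with equal bacterial controls. Of 26 MADS box genes 4 were higher and 6 lower, the others not called, but none and 20 with equal bacterial controls. Of 9 genes for abscisic acid, dehydrins and ethylene 5 were higher and 2 lower, or 1 and 4, and of 11 bZIP and Dof factor genes 5 and 2, or 1 and 6. Of 8 genes for mitochondrial oxidases and carriers 4 were higher and 3 lower, or 1 and 4. Of 5 proteinase inhibitor genes 3 were higher and 1 lower, and of 5 iron and metal genes 2 were higher and none lower, or none and 2.

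The labels of the 2 zones were set against markers of cell types. All 7 mesophyll and all 3 bundle sheath markers were higher in the mature zone, with means over each list of 13.6 on both mature arrays and 8.57 and 8.63 on the elongation arrays for mesophyll, and of 13.1 to 13.3 and 7.28 to 7.29 for bundle sheath. All 8 markers of dividing cells were lower, with list means of 6.19 to 6.36 in the mature zone and 9.41 on both elongation arrays, so the elongation zone as cut still carried their transcripts. Of 6 markers of elongating walls 4 were lower and 2, *xet1* and *expa1*, higher. The 3 meristem markers *kn1*, *lg3* and *lg4b* were dim and not called in either zone. The 4 senescence markers were higher, by 1.15 to 3.87. Of 4 secondary wall markers 3 were higher and 0 lower. Wax and epidermis markers were mixed, with 2 of 3 higher and 1 lower. Phloem and sucrose markers were mixed too, with 1 of 3 higher and 2 lower, from −4.17 to 4.24. Of 11 seed and anther markers 3 were called higher, the largest by 0.57 and lower once 0.63 is taken off, with list means of 4.47 to 4.51 in the mature zone and 4.25 to 4.34 in the elongation zone. In the wider list of 19 seed and endosperm genes, 15 were dim in both zones. Of the 19, 8 were called higher and 0 lower, beside 39.0% and 37.4% of all named genes. With equal bacterial controls 0 were higher and 10 lower.

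Some of the genes that fell furthest were lower at the base than in the elongation zone. The elongation minus division difference uses the same elongation arrays, so the values stand side by side without a test of their relation. *prp2* read 5.82 and 6.15 in the mature zone, against 12.24 and 12.32 in the elongation zone (−6.29 ± 0.36), with a division-zone mean of 8.40 (n = 3). *NIP1-1* had 9.01 in the division zone and *gst9* 8.44, both called lower there than in the elongation zone. *gar2* read 8.77 and 7.23 in mature tissue, against 13.22 and 13.34 in elongating tissue (−5.28 ± 0.65), with 11.75 in the division zone. Division-zone means of *gst12*, *pcna2*, *nfd106* and *Agp2* were 11.61, 11.71, 11.45 and 11.09. In that order the elongation minus division differences were 0.94 ± 0.61, −0.99 ± 0.62, −0.95 ± 0.55 and −1.10 ± 0.51. With the spread pooled over all groups none of them was called, which does not show equal levels. Among the genes that rose, *fdx2* was dim in the division zone (3.90) as in the elongation zone, and so were *rca1* (4.74) and *xet1* (3.79).

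The same zones compared at the 4 later times share no array with the end of the day, only the fitted spread. Of the 12650 calls 86.0% were called the same way at the end of the night, 81.8% at 6 h, 78.9% at 14 h and 76.5% at 24 h of extended night; these made up 81.3%, 75.4%, 70.6% and 68.7% of the calls at those times. Called with the opposite sign were 302, 648, 870 and 1140. At all 5 times 8071 were called the same way, 63.8%, or 80.5% of the 6062 calls of at least 1. Shares called at those times were 76.2, 78.2, 80.6 and 80.2% of all probe sets. The difference of *fdx2* was 8.30, 8.39, 7.92 and 7.11 at the later times in order, and that of *pep1* 7.34, 6.94, 7.23 and 6.40. *vpp1* had 5.09, 4.72, 2.54 and 1.49. *prp2* had −5.65, −5.37, −5.02 and −5.56, and *gst12* −4.82, −4.92, −4.58 and −5.09. At 24 h the plastid splicing list had a median of −0.07, and the import and targeting list one of −0.19 with no gene called higher. Light harvesting had a median of 5.04 there and tubulins one of −3.90. The list of secondary-wall cellulose synthases and COBRA-like genes had one of −0.04, and primary-wall cellulose synthases, all 9 then called lower, one of −4.12.

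The zone difference at the end of the day was also tested against that at the end of the night. By a limma contrast of the 2 differences it was larger or smaller for 4343 probe sets, 24.7%, by at least 1 for 1286. The count was 5080 without end-of-night replicate 3 of the mature zone and 3201 without end-of-day replicate 1 of the elongation zone. *rpo2*, an organellar RNA polymerase gene, was higher at the end of the day, in the mature zone at 10.20 and 10.29 against 9.05 and 9.12 in the elongation zone (1.16 ± 0.19, not called with equal bacterial controls), and lower at the end of the night (−3.02). *tip4a* was higher by 3.54 at the end of the day and by 0.44 at the end of the night, and *gst19* by 5.38 and 2.33. On the other side *pip1e* was higher by 1.18 and 4.80, *xet1* by 5.83 and 8.51, and *sat1* by 3.67 and 6.14. *AGA3b*, an alkaline alpha-galactosidase gene, read 7.74 and 7.61 in mature tissue, against 7.91 and 7.69 in elongating tissue at the end of the day, was not called (−0.13 ± 0.18) and differed by 3.21 at the end of the night. *pip2b* changed sign, being lower at the end of the day (−1.61 ± 0.17) and differing by 0.82 at the end of the night.

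**Figure D5:**
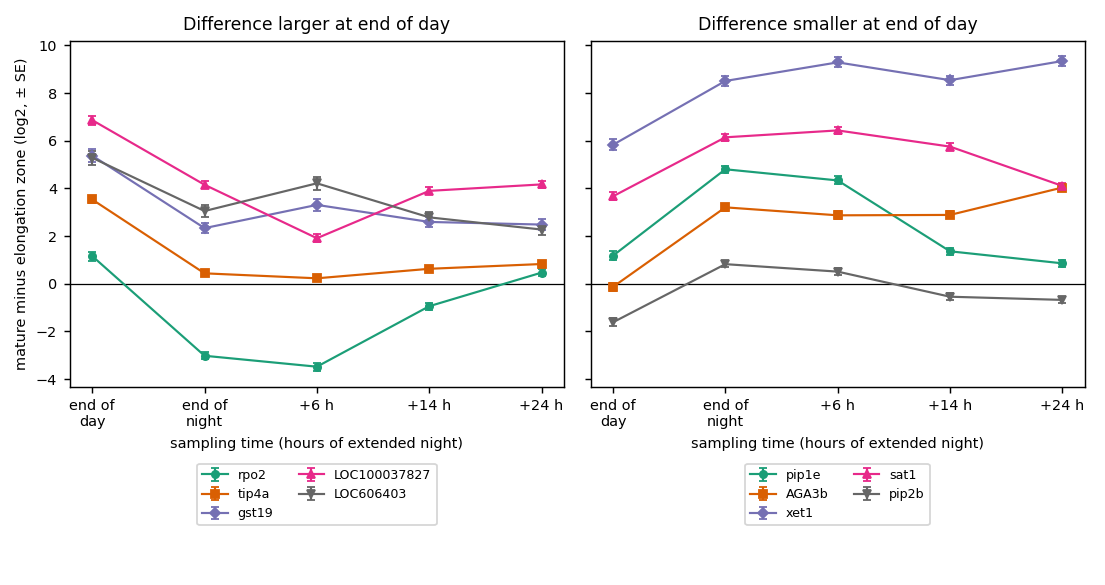
Difference, mature minus elongation zone (log2, ± SE), at the 5 sampling times. Left are the 5 named genes whose signed difference at the end of the day most exceeded that at the end of the night. Right are the 5 whose signed difference lay furthest below it. Both sets were taken from the called genes by size, and other named genes were called as well. The difference of *rpo2* is 1.16 at the end of the day and −3.02 at the end of the night, that of *pip2b* is −1.61 and 0.82, and that of *AGA3b* is near 0 at the end of the day alone.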

How the data were processed

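RNA of leaf zones was hybridized to a maize expression array. The values are log2 signals that the authors normalized with RMA, per the submitters' processing notes. The 3 empty columns of the deposited table were left out, and no column belonged to another series. The 113 hybridization and labelling control probe sets and 66 reporter probe sets stayed out of the test. The remaining 17555 probe sets were fitted in limma 3.58.1 (R 4.3.3) with a mean for each of 15 groups over 42 arrays (27 residual and 4.0 prior degrees of freedom), followed by Benjamini-Hochberg adjustment over all probe sets. Tables and figures used Python 3.11.15, pandas 2.3.3 and matplotlib 3.10.9. In a self-test of this comparison, known changes of 0.5, 1, 2 and 4 on the log2 scale were given to 50 probe sets each. The others of the 17555 had no change, and noise was drawn independently. Recovered were 42, 86, 100 and 100%, with 14 false calls among 178. Far more probe sets were called in the data, 72.1%, so the self-test sets another p cutoff and its shares do not carry over to the data.

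The platform annotation gives 1 gene to 1452 probe sets, several to 1 and none to 16102. Of the 1108 genes 1060 were in the reference gene table, and 667 fell into 74 lists. Members and lists were chosen with earlier results of these data known, and lists were drawn up from gene symbols. Genes named are the 12 largest called changes each way whose arrays did not overlap and that were not dim in both zones, up to 4 called members each way of each list, all members of lists of up to 6, genes whose probe sets were called in opposite directions, and the 5 largest differences each way between end of day and end of night. Not every gene that this rule takes is named.

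Replicates are pools of plants, so p-values measure the spread between such pools. Their number limits the precision. The labels give no batch. Replicate numbers were not taken to pair the samples, since the labels do not tie them and deviations of same-numbered samples correlated at −0.133 at the end of the day, where 2 replicates give 1 value, and at −0.062 to 0.206 at the other times. Alternatives were array weights, arrays centred on their medians, a filter on dim probe sets, a replicate block, an intensity trend, the 4 arrays alone and each replicate left out. Equal bacterial controls, quantile normalization and a block with crossed numbers were added after seeing the data. Sequences were not used here, and 1 of the lists, with 1 of the largest decreases, is not reported here.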

Additional observations from a re-analysis of the deposited data

Results flagged for a closer look

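The 10 named genes given here had the largest called changes of the zone difference between end of day and end of night, 5 each way. They are not the only genes called by limma's contrast of the 2 differences, which called 4343 probe sets, 24.7%. The value, end of day minus end of night, was 4.18 for *rpo2*, 3.10 for *tip4a*, 3.04 for *gst19*, 2.71 for LOC100037827 and 2.23 for LOC606403. It was −3.62 for *pip1e*, −3.34 for *AGA3b*, −2.68 for *xet1*, −2.47 for *sat1* and −2.44 for *pip2b*. LOC606403 had the highest adjusted p of the 10, at 2.4e-05. Without end-of-night replicate 3 of the mature zone the first 5 were 4.37, 3.14, 2.70, 2.44 and 1.98, and the other 5 were −3.80, −3.39, −2.73, −2.50 and −2.50.

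Signals outside the tested probe sets also differed between the mature and elongation zones at the end of the day. The bacterial controls were higher in the mature zone by 0.77 for bioB, 0.64 for bioC and 0.43 for bioD. The excess of the 3' over the 5' probe set was larger there by 0.99 for actin and by 0.66 for EF-1alpha. These differences were not tested against sample quality.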

How the results depend on the processing

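Counts over all probe sets moved by more than 1.5 times in 1 setting, arrays shifted to equal bacterial controls: 2452 higher and 10084 lower, 1585 higher and 5974 lower by at least 1, and 7256 for end of day against end of night, where the deposited scale gave 6340, 6310, 2682, 3380 and 4343. Of its calls 19.6% were higher. Centring arrays on their medians gave 7942 higher and 5577 lower, a share of 58.7% higher. The replicate block gave 6444 higher and 6335 lower, and crossed numbers 6451 and 6342, and both kept the counts over all probe sets within 1.5 times. Leaving out a replicate in turn, where the lone array is taken to vary like the other groups, gave 5428 to 5861 higher, 5900 to 6011 lower, 2682 to 2707 higher by at least 1 and 3334 to 3432 lower by at least 1. The later times gave 12639 to 13702 calls at the end of the night and 12414 to 13516, 13500 to 13962 and 13390 to 13641 at 6, 14 and 24 h. End of day against end of night gave 3201 to 5080. Array weights, the intensity trend, the 4 arrays alone, quantile normalization and the filter on dim probe sets kept the counts over all probe sets within 1.5 times. Counts within the gene lists are small and moved more often. Of the 148 such counts, higher and lower in each list, 67 moved by more than 1.5 times with equal bacterial controls, 17 with the filter on dim probe sets, 15 after quantile normalization, 13 with centred arrays, 4 to 9 without a replicate, 2 with the 4 arrays alone and 1 each with array weights, the replicate block and the crossed block.

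With equal bacterial controls *adh2*, *derlin4*, *elm1*, *et1*, *pep4*, *rpo2* and *tub3* were no longer called. Genes not called on the deposited scale were called lower in that setting, among them *PPCK1*, *cat1* and *pep7*. Of the genes named, 1 that was called changed sign, *myo1*, at −0.031 with equal bacterial controls. Uncalled genes changed sign as follows. With equal bacterial controls *SPP2* was at −0.40, *kn1* −0.51, *lg3* −0.46, *lg4b* −0.39, *toc34* −0.51 and *toc34B* −0.63. Centred, *AGA3b* was at 0.029, *GPC1* 0.084, *PPCK1* 0.0021, *cat1* 0.12 and *gpc2* 0.056. After quantile normalization *AGA3b* was at 0.023, *SPP2* −0.016, *cat1* 0.097, *kn1* −0.079 and *lg3* −0.026. Leaving out a replicate gave −0.35 to 0.039 for *PPCK1*, −0.10 to 0.029 for *cat1* and −0.18 to 0.20 for *toc34B*. Of the genes with several probe sets, 25 had probe sets called in opposite directions.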
